A study of Verbena bonariensis with 6 samples.

Results

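ZAT and AZF proteins are small plant zinc finger transcription factors of the C2H2 family. Among the 8147 gene clusters of transcriptional regulators measured in Verbena bonariensis roots, 25 were C2H2 clusters whose best Swiss-Prot hit was a "Zinc finger protein ZAT" or a "Zinc finger protein AZF". These 25 clusters carried 6 names, all of them names of proteins of Arabidopsis thaliana: AZF2 (10 clusters), ZAT5 (4), ZAT9 (4), ZAT4 (3), ZAT10 (2) and ZAT11 (2). The rule for this choice used the annotation and no measured value, but it was set with earlier results of these data known. A cluster is a group of assembled transcripts treated as 1 gene, so clusters of one name can be separate genes, alleles or pieces of 1 gene.

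Roots of 2-month-old plants of the cultivar Finesse grown for 20 days in soil brought to 100 mg/kg cadmium (cadmium roots, 3 libraries) were compared with roots from soil that received no cadmium solution (control roots, 3 libraries). The labels call the libraries biological replicates and do not say how many plants each one holds. Whole roots were used, so fewer cells of a type and less RNA per cell cannot be told apart. Counts of the regulators summed to 1092183 to 1228042 per cadmium library and to 1207479 to 1340255 per control library, and the 25 ZAT and AZF clusters took 3077 to 3983 of these counts in cadmium roots and 2145 to 2690.0 in control roots.

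As background, proteins of this type bind DNA through zinc fingers that carry a plant-specific signature, and most hold a short repression motif of the EAR type, through which they recruit co-repressors and silence target genes. In Arabidopsis several of them are switched on within minutes to hours by reactive oxygen species, salt, cold, drought, wounding or excess metal, and they are known as links between such stress and the genes of antioxidant defence. ZAT12 and ZAT6, which in Arabidopsis have been tied to iron uptake and cadmium tolerance, were the best Swiss-Prot name of 0 clusters here, although both ZAT11 clusters had a sesame protein described as ZAT12-like as their best hit in the NR protein database. The files used here hold no sequences of these clusters, so identity rests on the authors' database hits.

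Values are given on several scales. CPM are counts scaled to the same total of regulator counts in every library, with TMM factors, and they serve to compare libraries. FPKM are the authors' deposited values scaled to cluster length and to the fragments of the whole library, and they serve to compare genes. Log2 fold changes are cadmium over control from edgeR's quasi-likelihood fit to all clusters (or to all names, after summing), with its standard error (SE) and Benjamini-Hochberg adjusted p over the whole table. A call means an adjusted p below 0.05. The p-values of the fits set the difference between the groups against the spread of these 6 libraries within their groups. That spread is moderated, that is, drawn towards the spread of the other rows of the same fit. The same counts can therefore give another p in the fit over clusters than in a fit over sums.

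The ZAT and AZF names did not move as one. ZAT11, ZAT5 and ZAT9 were higher in cadmium roots, by 10.7-fold, 3.92-fold and 2.43-fold in their summed counts. ZAT10 and AZF2 were lower in cadmium roots, by 2.03-fold and 1.81-fold. ZAT4, the least abundant name, did not pass the test. These 5 calls among 6 names (edgeR, adjusted p between 3.25e-07 and 0.00186, n = 3 per group) stand beside 56.7% of all 1551 tested names called, 27.9% higher and 28.8% lower, so a call as such was common among names and the sizes and directions are what the values add.

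**Figure D1:**
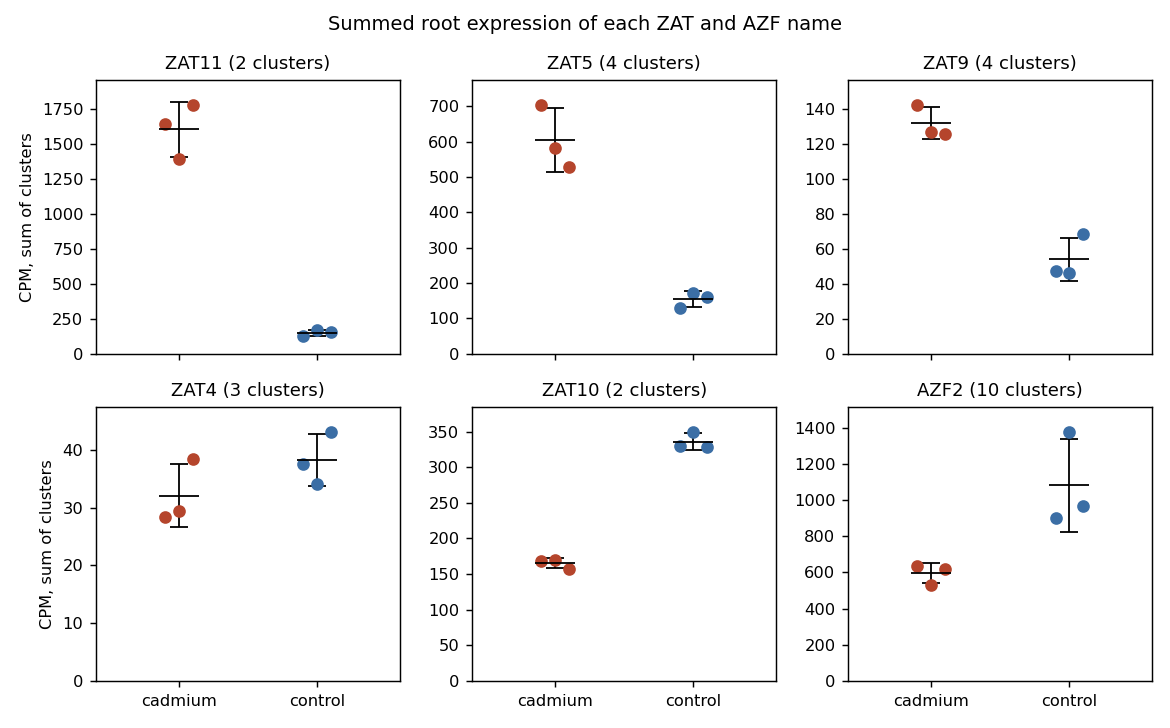
CPM (linear axis from 0) summed over the clusters of each name in 3 cadmium and 3 control libraries; points are libraries, and the line and bars are the mean and SD. ZAT11, ZAT5 and ZAT9 lay above every control library in all 3 cadmium libraries, ZAT10 and AZF2 lay below, and the ZAT4 groups overlapped.

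Counted by single clusters, 15 of the 25 passed the filter on low counts and 10 did not. The 10 below it held 1.98% of all ZAT and AZF counts and reached at most 56.6 counts in a library. Of the 15 tested, 5 were called, 3 higher (both ZAT11 clusters and a ZAT5 cluster) and 2 lower (a ZAT10 and an AZF2 cluster), beside a background of 30.5% called among the 4844 tested clusters, 15.8% higher and 14.6% lower. Among the other 269 C2H2 clusters, 23 of 145 tested were higher and 12 lower. The share called among ZAT and AZF clusters was thus near the background. In 7 of the 15 the groups did not overlap in CPM, as in 53.5% of all tested clusters. The 5 called clusters held 74.4% of all counts of the 25.

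ZAT11 gave the largest difference. In Arabidopsis this factor promotes primary root growth and lowers tolerance to nickel. Its larger cluster (Cluster-9033.156448, 757 bases with a coding stretch of 178 codons) had 1222, 1052 and 1343 CPM in cadmium roots, against 84.5, 113.8 and 114.8 CPM in control roots. Its smaller cluster (Cluster-9033.156447, 740 bases, 180 codons) had 428, 344 and 443 CPM in cadmium roots, against 37.6, 54.1 and 44.0 CPM in control roots. In both clusters the lowest cadmium library, replicate 2, was still several times above the highest control library.

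The larger ZAT11 cluster rose by 3.53 ± 0.17 on the log2 scale and the smaller by 3.16 ± 0.20 (SE, n = 3 per group; edgeR, adjusted p = 8.54e-05 and 0.000183). Only 2.93% of the tested clusters were called higher with a log2 fold change of 3 or more. Of all regulator clusters, 11 (the larger ZAT11 cluster among them) were called with both a fold change and a cadmium CPM at least as high as that cluster's. The larger cluster took 74.1%, 75.3% and 75.2% of the pair's counts in cadmium roots and 69.2%, 67.8% and 72.3% in control roots, and the groups did not overlap (p = 0.1 by an exact permutation test, two-sided; 3 against 3 libraries cannot give less). The pair's decimal counts added up to a whole number within 0.015 in all 6 libraries, as when reads are divided between these clusters, and the sum is the firmer value. Summed, ZAT11 had 1643, 1389.7 and 1781 CPM in cadmium roots, against 124, 168 and 159 CPM in control roots, a log2 fold change of 3.42 ± 0.14 (edgeR on names, adjusted p = 3.25e-07).

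ZAT5, a relative whose function is less well described, was carried by 1 of its 4 clusters. Cluster-9033.47890 (1221 bases, 263 codons) had 618, 506 and 419.5 CPM in cadmium roots, against 44.1, 89.6 and 82.2 CPM in control roots. All cadmium libraries lay far above all control libraries. The cluster rose by 2.84 ± 0.31 on the log2 scale (edgeR, adjusted p = 0.00132).

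The other ZAT5 clusters, each with a best NR protein of its own, did not pass the test or the filter. Cluster-9033.28625 had 58.6, 59.2 and 60.7 CPM in cadmium roots, against 49.9, 64.0 and 49.5 CPM in control roots, and its log2 fold change was 0.13 (SE 0.24), with a 95% interval of −0.46 to 0.72. Cluster-9033.19051 had 26.0, 13.9 and 41.9 CPM in cadmium roots, against 31.1, 19.2 and 28.7 CPM in control roots, with an interval of −1.20 to 1.30. In both the groups overlapped, and neither interval reached the 2.08 at the lower end of the interval of Cluster-9033.47890. The fourth, Cluster-18448.0, held at most 6.84 CPM in any library and was not tested in the main fit. The share of ZAT5 counts in Cluster-9033.47890 was 87.3%, 86.6% and 79.3% in cadmium roots and 34.3%, 51.9% and 51.2% in control roots, without overlap (p = 0.1 by the same exact test). The sum of the name therefore rose less than this cluster, by 1.97 ± 0.15 (edgeR on names, adjusted p = 9.33e-06). With counts scaled to whole-library totals the log2 fold change of the name was 1.63 (edgeR on names, adjusted p = 1.69e-05). Summed FPKM are also scaled to the whole library, and short clusters weigh more in them than in summed counts. On that scale the log2 fold change of the name was 0.97 (limma-trend on log2(FPKM + 1), adjusted p = 5.94e-05).

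ZAT9 rose in its sum, while none of its clusters passed in the fit over clusters. The summed counts were 143, 127 and 126 CPM in cadmium roots, against 47.2, 46.3 and 68.5 CPM in control roots, a log2 fold change of 1.28 ± 0.20 (edgeR on names, adjusted p = 0.000654). With counts scaled to whole-library totals it was 0.94 (edgeR on names, adjusted p = 0.00379). On summed FPKM it was 0.67 with limma-trend on log2(FPKM + 1) and 0.86 with limma-trend on log2(FPKM + 0.1) (adjusted p = 0.00956 and 0.0123). The main cluster, Cluster-6893.0 (1762 bases, 400 codons), had 97.5, 113 and 107 CPM in cadmium roots, against 0, 42.4 and 57.3 CPM in control roots. The library with 0, control replicate 1, had 40.9 CPM in Cluster-6893.2 instead, a cluster of 1783 bases with the same Swiss-Prot score and the same length of coding stretch, which was at 0 in both other control libraries. Among the cadmium libraries, Cluster-6893.2 had 27.5 CPM in replicate 1 and 0 in replicates 2 and 3.

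With 0 in that library, Cluster-6893.0 alone had a log2 fold change of 1.67 ± 1.22 and did not pass (edgeR, adjusted p = 0.357). Without control replicate 1 the same cluster passed, with 1.09 (adjusted p = 0.0381). Summed with the other clusters of their shared sesame protein, itself described as ZAT4-like, it had 125, 115.5 and 109 CPM in cadmium roots, against 43.5, 42.1 and 60.9 CPM in control roots, and rose by 1.25 ± 0.20 (edgeR on NR proteins, adjusted p = 0.000638). In the authors' deposited table Cluster-6893.0 was called higher, with a q-value of 0.00313. The remaining ZAT9 cluster of some abundance, Cluster-15931.0, whose best NR hit is described as zinc finger protein 91-like, had 18.4, 12.9 and 17.1 CPM in cadmium roots, against 3.61, 4.0 and 7.18 CPM in control roots. It did not pass as a cluster (log2 fold change 1.69 ± 0.58; edgeR, adjusted p = 0.0743). In the fit over NR proteins, where it is the only cluster of its protein, the same counts were called higher (1.70 ± 0.46; edgeR, adjusted p = 0.0115). DESeq2 called it, with 1.73, as 1 of 6 clusters of the group called by that tool, beside 43.3% of all clusters it tested (21.8% higher, 21.5% lower).

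ZAT4 stayed low in both groups. Its summed counts were 28.3, 29.4 and 38.4 CPM in cadmium roots, against 37.5, 34.1 and 43.1 CPM in control roots, and the groups overlapped. The log2 fold change was −0.25 ± 0.28, with a 95% interval of −0.91 to 0.40 (edgeR on names, adjusted p = 0.473). With whole-library totals it was −0.59 (adjusted p = 0.106). Its most abundant tested cluster, Cluster-9033.164018, had 16.8, 16.2 and 14.9 CPM in cadmium roots, against 10.2, 21.8 and 12.8 CPM in control roots.

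ZAT10, known in Arabidopsis as STZ, is a repressor induced by salt, drought, cold and oxidative stress. Here it was the most abundant name per length in control roots, and it was lower in cadmium roots. Cluster-9033.65129 had 168, 167 and 158 CPM in cadmium roots, against 322, 346 and 324 CPM in control roots. The libraries within each group were close together and the groups lay well apart. The cluster fell by 1.01 ± 0.10 on the log2 scale (edgeR, adjusted p = 0.00102), and the second ZAT10 cluster, at up to 4.0 CPM in any library, added little to the sum (−1.02 ± 0.10 on names, adjusted p = 3.56e-05). This cluster is 317 bases long and its coding stretch covers bases 2 to 316, as in a piece of a gene. Without sequences its ends could not be checked.

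AZF2, in Arabidopsis a repressor induced by abscisic acid and osmotic stress and expressed in roots, held most of the ZAT and AZF counts in control roots. Its sum was 635, 532 and 620.5 CPM in cadmium roots, against 901, 1378 and 966 CPM in control roots, a log2 fold change of −0.86 ± 0.16 (edgeR on names, adjusted p = 0.00186). The fall lay mainly in 1 of a pair of clusters that share a best sesame protein. Cluster-9033.76580 (1814 bases, 225 codons) had 276, 181 and 225 CPM in cadmium roots, against 418, 937 and 557 CPM in control roots. Its partner Cluster-9033.108886 (1805 bases, 225 codons) had 269, 284 and 326 CPM in cadmium roots, against 337, 319 and 260.4 CPM in control roots. The groups were apart in the first cluster and overlapped in the second.

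Cluster-9033.76580 fell by 1.49 ± 0.33 on the log2 scale (edgeR, adjusted p = 0.0178), a call that ended without cadmium replicate 2 (−1.31, adjusted p = 0.0673) and without cadmium replicate 3 (−1.48, adjusted p = 0.064). The log2 fold change of Cluster-9033.108886 was −0.058, with a 95% interval of −0.40 to 0.29. Cluster-9033.76580 made up 50.6%, 38.8% and 40.8% of the pair in cadmium roots and 55.4%, 74.6% and 68.1% in control roots, again without overlap (p = 0.1 by the same exact test). The highest control value, 937 CPM in replicate 2, also set the wide spread of the control sum. Without control replicate 2 the cluster's log2 fold change was −1.10 (edgeR, adjusted p = 0.0285) and the pair's sum, −0.85 with all libraries (adjusted p = 0.00312), was −0.60 (adjusted p = 0.00166). The decimal counts of this pair added up to a whole number within 0.015 in 1 of 6 libraries, and those of Cluster-6893.0 and Cluster-6893.2 in 2 of 6, so neither the division within these pairs nor their sums are as firm as the sum of ZAT11.

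The other 8 AZF2 clusters were low, together 92.4, 70.0 and 71.8 CPM in cadmium roots, against 135, 124 and 147 CPM in control roots. Cluster-9033.32162, the most even of them, had 46.8, 55.1 and 45.5 CPM in cadmium roots, against 55.8, 63.5 and 53.9 CPM in control roots, and did not pass (log2 fold change −0.23 ± 0.25; edgeR, adjusted p = 0.539). Cluster-9033.32159 and Cluster-9033.30576 were each at 0 in 2 of 3 cadmium libraries, and their 95% intervals ran from −5.84 to 2.26 and from −6.62 to 3.61. Summed over their best NR proteins, the 5 clusters of a second AZF2-like sesame protein had 21.9, 15.0 and 26.1 CPM in cadmium roots, against 35.4, 46.1 and 67.7 CPM in control roots, a log2 fold change of −1.23 ± 0.36 (edgeR on NR proteins, adjusted p = 0.0161). That call ended without cadmium replicate 2 (−1.02, adjusted p = 0.0601) and without control replicate 3 (−0.96, adjusted p = 0.0709). The 3 clusters of a hypothetical protein had 70.8, 55.3 and 45.3 CPM in cadmium roots, against 100.6, 76.7 and 78.9 CPM in control roots, and just missed the threshold (−0.58 ± 0.23, adjusted p = 0.0535). Over the 11 NR proteins tested, 4 were called higher and 3 lower, beside 59.7% of all 2122 tested NR proteins called, 30.2% higher and 29.5% lower.

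**Figure D2:**
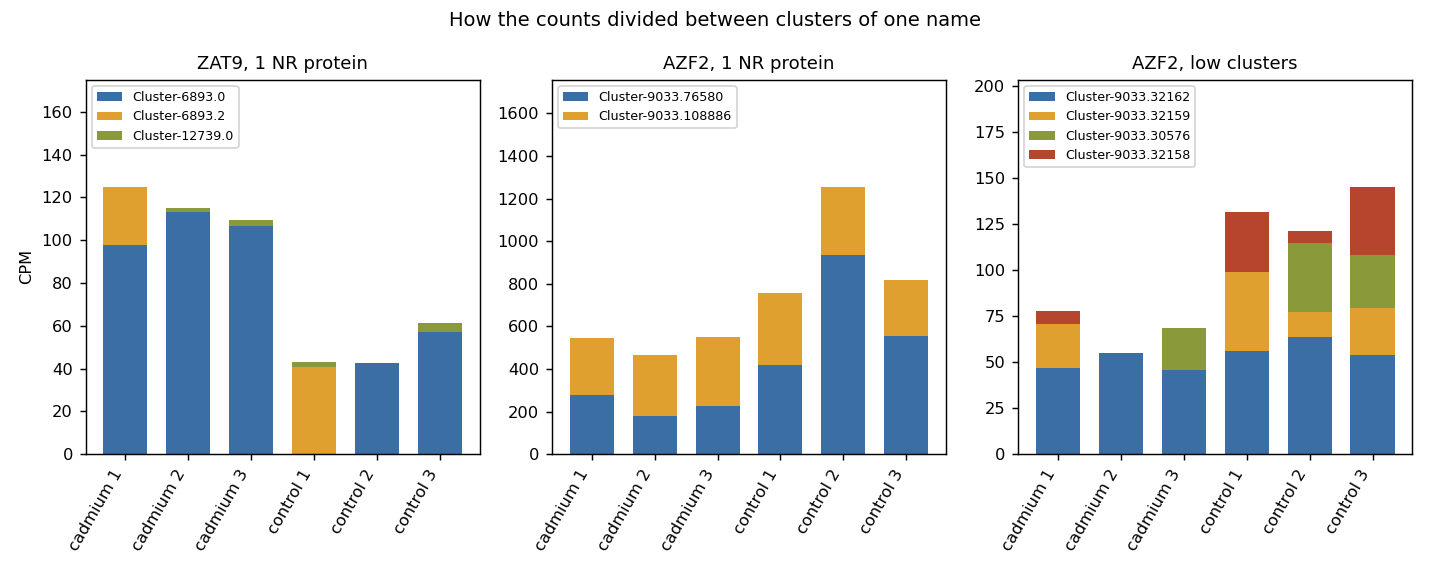
CPM per library (linear axis from 0), stacked by cluster, for the ZAT9 clusters of 1 sesame protein, the main AZF2 pair and 4 low AZF2 clusters, with cadmium libraries left of control libraries. Control replicate 1 had 0 CPM in Cluster-6893.0 and 40.9 CPM in Cluster-6893.2, while the stack as a whole was higher in all 3 cadmium libraries; in the AZF2 pair the lower cadmium stack came mainly from Cluster-9033.76580.

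The make-up of the group as a whole differed between the conditions. ZAT11 made up 49.5%, 49.1% and 54.8% of all ZAT and AZF counts in cadmium roots, against 7.88%, 7.81% and 9.21% in control roots. ZAT5 averaged 19.3% ± 2.71 in cadmium roots and 8.54% ± 0.672 in control roots (SD, n = 3 each). AZF2 made up 19.1%, 18.8% and 19.1% in cadmium roots, against 57.4%, 64.1% and 56.0% in control roots. ZAT10 averaged 5.31% ± 0.617 in cadmium roots and 18.8% ± 2.38 in control roots. The total of the 25 clusters was 3336, 2845 and 3259.7 CPM in cadmium roots, against 1549.9, 2151 and 1723 CPM in control roots. With ZAT11 taken out of the total, 1686, 1448 and 1474 CPM remained in cadmium roots and 1428, 1983 and 1565 CPM in control roots, and the groups overlapped.

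**Figure D3:**
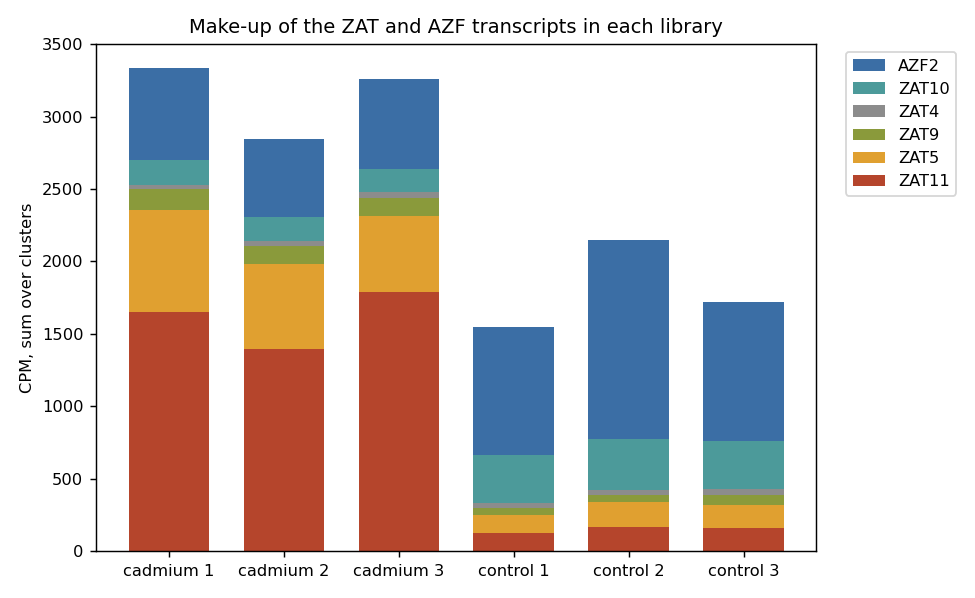
CPM of the 25 clusters (linear axis from 0), stacked by name, in 3 cadmium and 3 control libraries. ZAT11 took 49.1% to 54.8% of the stack in cadmium libraries and 7.81% to 9.21% in control libraries, and AZF2 was the largest part in every control library.

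Levels per length put the names in another order. In cadmium roots summed FPKM were 163 ± 20.7 for ZAT11, 102 ± 3.97 for ZAT10, 41.7 ± 3.54 for ZAT5, 21.1 ± 1.55 for AZF2, 4.61 ± 0.0666 for ZAT9 and 0.903 ± 0.17 for ZAT4 (SD, n = 3), and no neighbours in this order overlapped. In control roots they were 248 ± 10.5 for ZAT10, 47.3 for AZF2 (39.9, 58.6 and 43.2 in the 3 libraries), 20.9 ± 2.53 for ZAT5, 19.1 ± 2.95 for ZAT11, 2.58 ± 0.809 for ZAT9 and 1.37 ± 0.254 for ZAT4. There the ZAT5 and ZAT11 libraries overlapped, and all other neighbours were apart. The authors' FPKM follow cluster length less an offset of 227 to 241 bases, so the FPKM of the 317-base ZAT10 cluster depends on that offset far more than those of longer clusters.

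**Figure D4:**
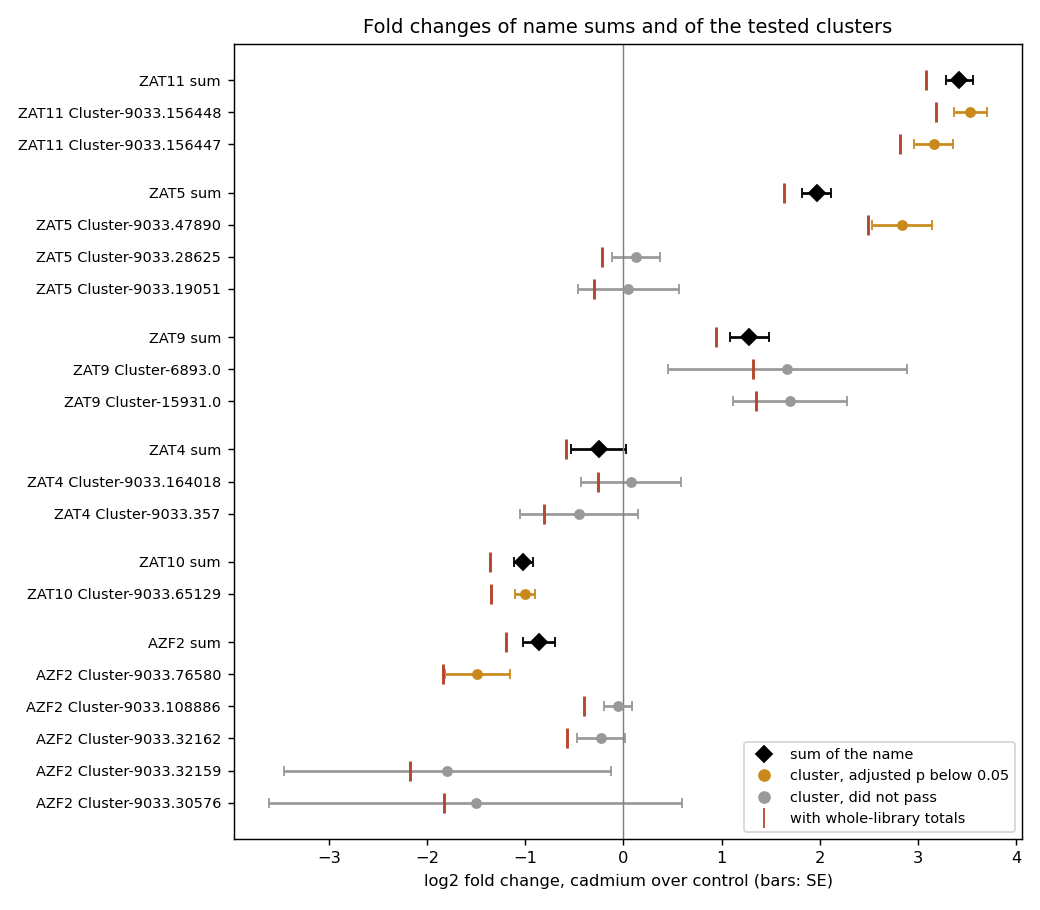
Log2 fold change, cadmium over control, with SE bars, for the sum of each name (diamonds) and for the 15 tested clusters (circles, coloured where the adjusted p was below 0.05); red ticks give the same value with whole-library totals. ZAT11 lay at 3.42, ZAT5 at 1.97 and ZAT9 at 1.28, ZAT10 at −1.02 and AZF2 at −0.86, and the ticks kept those signs.

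Regulators were a smaller part of the cadmium libraries (5.23% to 5.53% of fragments) than of the control libraries (6.45% to 6.52%). Scaling to whole-library totals therefore shifted the median log2 fold change of all tested clusters by −0.35. On that scale the called names kept their directions and calls, with 3.08 for ZAT11, 1.63 for ZAT5, 0.94 for ZAT9, −1.36 for ZAT10 and −1.19 for AZF2 (edgeR, adjusted p between 3.51e-07 and 0.00379), and 33.8% of all clusters were called, 10.9% higher and 22.9% lower. The fold changes of ZAT5 Cluster-9033.28625 and Cluster-9033.19051, 0.13 and 0.049 relative to the other regulators, were −0.22 and −0.30 there.

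By the q-values in the authors' deposited table, 7 of the 25 clusters were below 0.05, 4 higher and 3 lower, beside 19.1% of all clusters with a q-value. All 5 clusters called here were among them, with the same direction. The other two were ZAT9 Cluster-6893.0 and AZF2 Cluster-9033.32158. Cluster-9033.32158 had 7.19, 0.00924 and 0 CPM in cadmium roots, against 32.4, 6.84 and 37.3 CPM in control roots, and did not pass the filter on low counts here.

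Regulators known in Arabidopsis to act on, beside or below ZAT10 and ZAT12 were counted by cluster from word lists. Clusters of one name can be pieces of 1 gene and were not summed here, so these are not counts of genes. Heat stress factors of the A1, A4a and A8 types, WRKY25, WRKY33 and WRKY40, MBF1c and the cold regulators DREB1A to DREB1C (named so in Swiss-Prot or NR) formed a list with 5 clusters higher and 20 lower of 46 tested, with a median log2 fold change of −0.37 beside −0.076 over all tested clusters, of which 15.8% were higher and 14.6% lower. Within it the WRKY33 clusters gave 0 higher and 9 lower of 10 tested, and the WRKY40 clusters 3 higher and 3 lower of 11. The 3 higher WRKY40 clusters were low, with means of 17.0, 28.2 and 22.2 CPM in cadmium roots and at most 0.725 CPM in control roots. The 3 lower ones averaged 37.3, 2637 and 26.8 CPM in cadmium roots, against 88.0, 4566.5 and 96.2 CPM in control roots. The A1 heat stress factors gave 2 higher and 1 lower of 7, where the word match did not take every lettered A1 type. The A4a type gave 0 higher and 1 lower of 4, and the A8 type 0 called of 4 by edgeR. In Arabidopsis ZAT12 represses DREB1 genes, but 0 clusters had that Swiss-Prot name here, and a link was not tested. The DREB1 clusters gave 0 higher and 6 lower of 7 tested. Among them Cluster-9033.113755 (DREB1C) had 18.4, 12.9 and 13.5 CPM in cadmium roots, against 803, 576 and 782 CPM in control roots, and fell by 5.57 ± 0.23 (edgeR, adjusted p = 5.83e-05). The iron-deficiency bHLH factors, among which Arabidopsis FIT is a binding partner of ZAT12, gave 0 higher and 1 lower of 10 tested, with a median of 0.079. The called one, a bHLH104 cluster, fell by 0.55 ± 0.12 (edgeR, adjusted p = 0.0168), to 155, 166 and 146 CPM in cadmium roots, against 226, 241 and 217 CPM in control roots. Abscisic acid response bZIP factors gave 0 higher and 3 lower of 14 tested, with a median of −0.26. The share called was 10% in the iron list and 21.4% in the abscisic acid list, both below the 30.5% of all tested clusters. The co-repressors named TOPLESS, histone deacetylase 19, SAP18 and NINJA matched 0 clusters and were not analysed here.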

How the data were processed

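RNA of 3 cadmium and 3 control root libraries was measured by RNA sequencing. Bowtie2 2.0.6 and TopHat2 2.0.12 are named, per the submitters' processing notes; their roles, the assembler and the counter were not given in the sources used here. Expected counts per cluster, many with decimals, and the FPKM were made by the authors and deposited unscaled and scaled to length and depth, per the file headers. The log2 ratio, the q-value and the scores of the Swiss-Prot hits are the authors' own, per the file headers. The deposited cluster lengths were used as given.

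Lines were reduced to 1 per cluster and counts rounded. Library totals were recovered from count over FPKM against length (clusters above 300 counts and 10 FPKM). edgeR 4.0.16 in R 4.3.3 was run with filterByExpr (minimum count 10, minimum total 15), TMM and a quasi-likelihood model of group alone, on clusters, on sums per family and Swiss-Prot name, and on sums per family and NR protein. Each level has its own TMM factors, so CPM differ slightly between levels. The 95% intervals are the log2 fold change ± SE times the t quantile. As the SE was derived from the F statistic, they are approximate. They cover the spread between libraries as moderated over the rows of each fit. Shares were compared with exact permutation tests (scipy 1.17.1). Limma 3.58.1 and DESeq2 1.42.0 were alternatives, with RLE, whole-library totals, other filters, the replicate block and each library left out.

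Values are given for every called cluster, the sum of each name and, for names with no called cluster, the most abundant tested cluster, with opposed or split clusters of a name set beside each other. The members and lists were chosen with earlier results of these data known.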

Additional observations from a re-analysis of the deposited data

How the results depend on the processing

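The counts of 5 called clusters and 5 called names were each recomputed under 14 settings: RLE factors, whole-library totals, no filter, 5 CPM in 3 libraries, DESeq2, limma-trend on log2(FPKM + 1) and on log2(FPKM + 0.1), the replicate block and each library left out. The count of names was 5 (3 higher, 2 lower) under all of them; grouped by best NR protein in place of name, with the main settings, it was 7. The log2 fold change of the summed name ranged from 3.03 to 3.54 for ZAT11, from 0.97 to 2.07 for ZAT5, from 0.67 to 1.49 for ZAT9, from −1.36 to −0.98 for ZAT10 and from −1.19 to −0.65 for AZF2. The count of clusters was 4 to 7 with a library left out, 4 with the replicate block, 6 with DESeq2 and 5 otherwise. Both ZAT11 clusters, ZAT5 Cluster-9033.47890 and ZAT10 Cluster-9033.65129 were called under every setting, with log2 fold changes of 3.11 to 3.65, 2.64 to 3.31, 2.31 to 3.03 and −1.35 to −0.97. Replicates with the same number did not deviate together (correlations 0.00465, 0.0292 and −0.00377), so the number is not taken as a pairing; with the replicate block AZF2 Cluster-9033.76580 had −1.42 and was not called (adjusted p = 0.0865), and the sum over the hypothetical AZF2-like protein, −0.59, was (adjusted p = 0.0449). That sum was also called with whole-library totals (−0.93, adjusted p = 0.00553), with limma-trend under both pseudocounts and without cadmium replicate 1.

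Clusters that were not called changed sign under some settings; the cause was not tested. With whole-library totals, limma-trend on log2(FPKM + 1) and limma-trend on log2(FPKM + 0.1), the log2 fold changes were −0.22, −0.17 and −0.18 for Cluster-9033.28625, −0.30, −0.21 and −0.36 for Cluster-9033.19051, and −0.26, −0.064 and −0.15 for Cluster-9033.164018. Cluster-9033.19051 was −0.056 with the replicate block. With a library left out, Cluster-9033.19051 ranged from −0.39 to 0.40 (−0.13 without control replicate 2), Cluster-9033.164018 from −0.12 to 0.45 (−0.011 without control replicate 3), Cluster-9033.357 from −0.69 to 0.051, and Cluster-9033.108886 from −0.16 to 0.034 (0.0075 without cadmium replicate 1). AZF2 Cluster-9033.32159, at 0 in 2 cadmium libraries, was called without cadmium replicate 1; its fitted value there depends on the prior count. That setting tested 17 clusters and called 7, 3 higher and 4 lower. A cluster below the main filter was among the lower ones. The 10 clusters below the filter, with at most 56.6 counts in a library, are too low for a statement on each of them.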

Other observations

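Summed over the 25 clusters, ZAT and AZF transcripts came to 3147 ± 264 CPM in cadmium roots and 1808 ± 309 CPM in control roots, (SD, n = 3 each). Scaled to the fragments of the whole library in place of the regulators, they came to 164 ± 11.8 CPM in cadmium roots and 120.2 ± 18.2 CPM in control roots. Summed as FPKM they came to 334 ± 22.1 in cadmium roots and 339 ± 24.9 in control roots, and the groups overlapped. The groups did not overlap in CPM on either scaling. The 317-base ZAT10 cluster alone held 102 ± 3.98 FPKM in cadmium roots and 247 ± 10.5 FPKM in control roots.

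Names from the 2 databases differed for some clusters. Both clusters named ZAT11 by Swiss-Prot matched a sesame protein described as ZAT12-like, and the ZAT9 clusters Cluster-6893.0 and Cluster-6893.2 matched one described as ZAT4-like.

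A few clusters below the filter leaned against their name. AZF2 Cluster-6514.0 had 7.54, 7.4 and 3.42 CPM in cadmium roots, against 1.445, 0 and 0 CPM in control roots, and AZF2 Cluster-9033.26217 had 7.12, 7.52 and 0 CPM in cadmium roots, against 1.29, 0 and 0 CPM in control roots. Neither was tested in the main fit at these counts. With no filter all 25 clusters were tested, and neither was among the 5 called.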
